A study of Mus musculus with 8 samples.

Results

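Endothelial cells hold to each other through adherens junctions, tight junctions and further homophilic adhesion molecules, which together set how readily fluid, solutes and leukocytes cross the vessel wall. VE-cadherin forms the adherens junction, claudins and occludin form the strands of the tight junction, ZO-1 and paracingulin tie these membrane proteins to the actin cytoskeleton, and the immunoglobulin-like molecules of the JAM family, ESAM and CD31 line the cell border, where leukocytes pass. Tumor vessels are known for loose and irregular junctions.

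The 10 genes described here encode these molecules: Cdh5, Pecam1, Cldn5, Ocln, Tjp1, Esam, F11r, Jam2, Jam3 and Cgnl1. They were chosen by name, as endothelial junction molecules, among the 20057 genes of the table, and all 10 were found in it. RNA was sequenced from tumor endothelial cells, sorted as CD45-CD31+ cells, of B16-F10 melanomas grown under the skin of C57BL/6 male mice that were 8 weeks old at implantation of 250000 tumor cells. Each mouse was given 30 µg of antibody around the tumor on day 13 and again on day 16, and by the labels its cells were sorted 1 day later. The antibody was an agonistic CD40 mAb, which stimulates the receptor CD40, in 4 mice (5N, 6L, 6R and 10N) and a rat isotype control in the other 4 (5L, 7N, 8N and 9L), and each mouse gave 1 library. Both groups carried the same tumor line, and neither holds untreated tumors or vessels outside a tumor. CD31 is the product of Pecam1, so the sort itself selected cells with this member on their surface.

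A value is a normalized read count, in which the reads of a gene are divided by a factor for the depth of the library. The libraries of the agonistic CD40 mAb group held 12512772 to 64938728 reads on genes and those of the isotype control group 2971689 (5L) to 35583141, so that 1 read was worth 0.118 normalized reads in 5N and 2.44 in 5L. 5L and 7N stood apart from the other libraries: their median correlation with the rest, over the log2 values of 12969 genes, was 0.943 and 0.946, against 0.971 to 0.977 elsewhere. A gene was tested when the larger of its group means was above 10 normalized reads, which 12969 genes passed, 9 of the 10 junction genes among them. It was called higher or lower when its group means differed at least 1.5-fold with an unadjusted p of at most 0.05 in limma.

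None of the 9 junction genes tested was called higher or lower with the agonistic CD40 mAb. The limma fit called 166 genes higher, or 1.28% of all genes tested, and 31 lower, or 0.239%. At an unadjusted p of at most 0.05 without the fold limit there were 2.01% of all genes and 0 of the 9, and edgeR and DESeq2 on the recovered reads also placed 0 of the 9 below that p. The 2 groups of libraries overlapped for every one of the 10 genes, while they did not overlap for 1.57% of all genes tested. The Benjamini-Hochberg adjusted p was 0.9997 for each of the 9, and it was under 0.05 for 0.0154% of all genes.

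**Figure D1:**
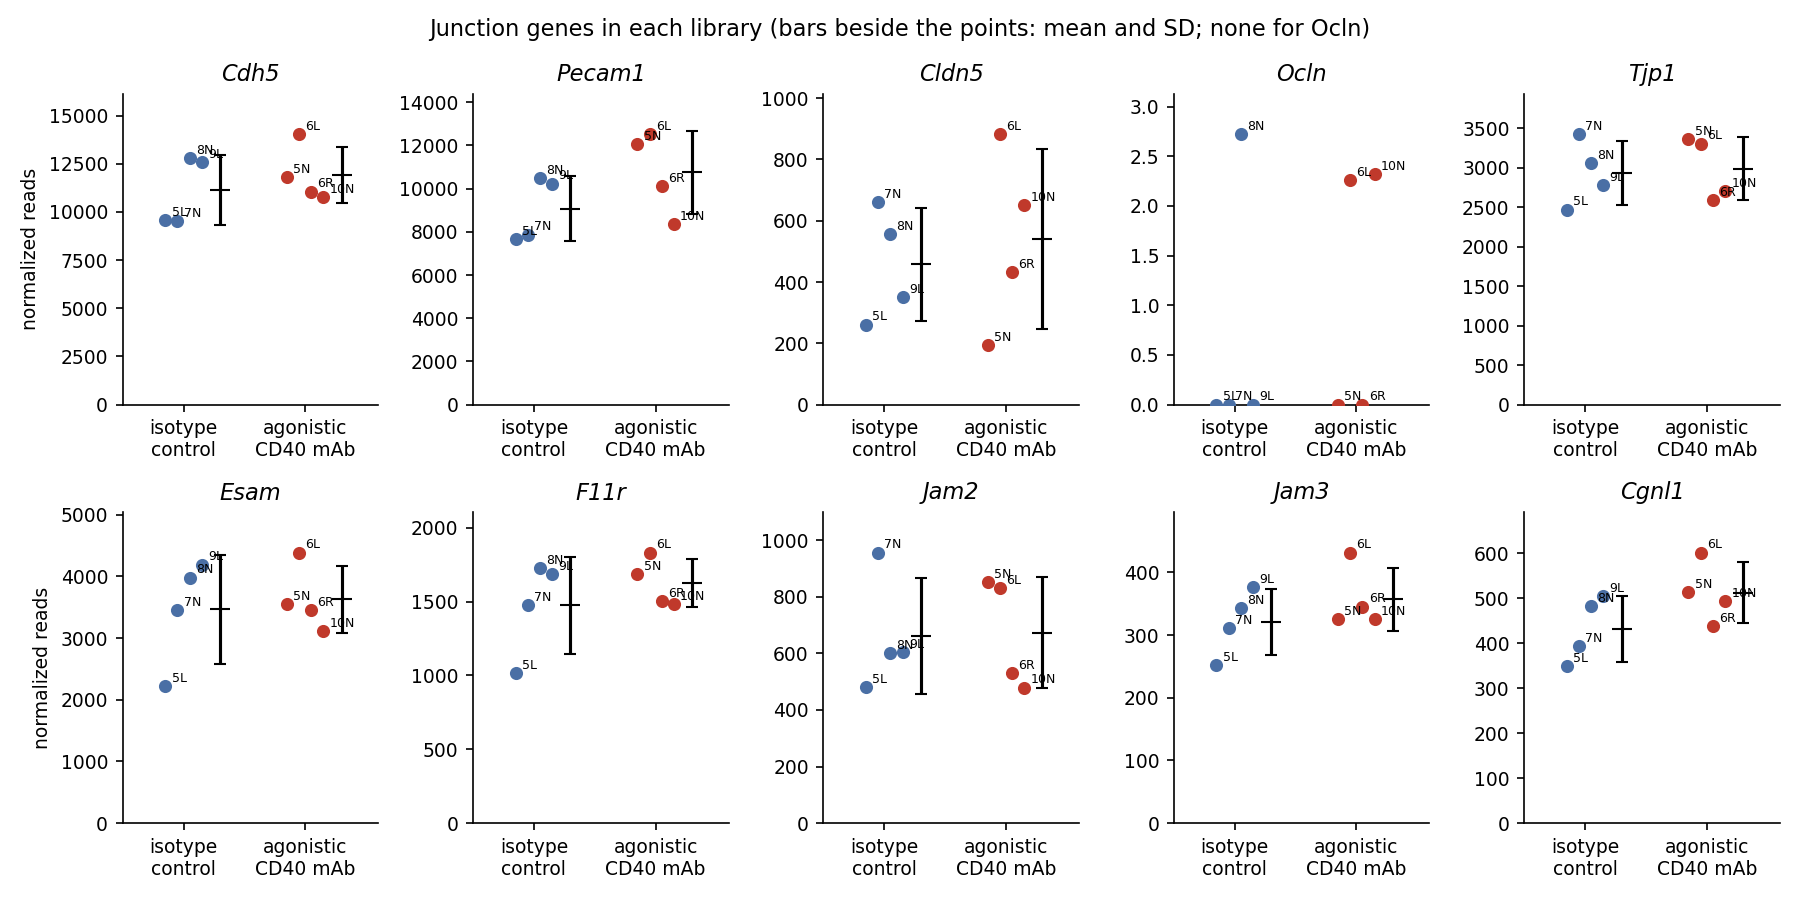
Normalized reads (vertical axes, each from 0) of the 10 junction genes in the 4 isotype control (blue) and the 4 agonistic CD40 mAb libraries (red), 1 point per library, with the group mean and SD drawn beside the points except for Ocln. The groups overlap in each panel, Ocln lies under 3 normalized reads, and 5L is often the lowest and 6L often the highest point.

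Cdh5 encodes VE-cadherin, the endothelial cadherin that holds the adherens junction together. It lies on chr8:104101625-104144511 (mm10, plus strand, 13 merged exons). Its normalized reads were 11791, 14039, 11053 and 10784 in the agonistic CD40 mAb libraries 5N, 6L, 6R and 10N, and 9565, 9535, 12815 and 12584 in the isotype control libraries 5L, 7N, 8N and 9L. The highest value came from a treated and the lowest from a control library, but 8N and 9L exceeded 3 of the 4 treated libraries. The means were 11917 ± 1478 and 11125 ± 1821 (SD, n = 4 each). The log2 fold change was 0.11 (SE 0.16, 95% interval -0.25 to 0.46, limma p = 0.520), and the exact permutation test over 70 assignments gave p = 0.514. On the linear scale the interval ran from 0.843-fold to 1.37-fold and so did not reach 1.5-fold in either direction.

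Pecam1 encodes CD31, which binds CD31 on the neighboring cell and on passing leukocytes. It lies on chr11:106654217-106750628 (minus strand). Its normalized reads were 12059, 12526, 10100 and 8353 with the agonistic CD40 mAb and 7671, 7877, 10499 and 10236 with the isotype control. The 2 highest values were from treated and the 2 lowest from control libraries, while 6R and 10N fell below 8N and 9L. The means were 10760 ± 1918 and 9071 ± 1504 (SD, n = 4 each), with a log2 fold change of 0.24 (SE 0.18, 95% interval -0.14 to 0.63, limma p = 0.194, exact permutation p = 0.200). The upper end of this interval was a 1.55-fold difference.

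Esam encodes an immunoglobulin-like adhesion molecule of the tight junction, found on endothelial cells and platelets. It lies on chr9:37528078-37538319 (plus strand). Its normalized reads were 3553, 4385, 3454 and 3118 in the treated and 2224, 3459, 3980 and 4190 in the control libraries. Apart from 5L, the control libraries lay within the range of the treated ones. The means were 3627 ± 538 and 3463 ± 882 (SD, n = 4 each), and the log2 fold change was 0.10 (SE 0.20, 95% interval -0.34 to 0.53, limma p = 0.636, exact permutation p = 0.771).

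The JAM family is a small group of immunoglobulin-like proteins that pair across the cell border and bind leukocyte integrins. F11r (JAM-A, chr1:171437535-171464603, plus strand) had 1686, 1832, 1504 and 1482 normalized reads with the agonistic CD40 mAb and 1014, 1475, 1726 and 1685 with the isotype control. Only 5L stood well below the others. Its log2 fold change was 0.17 (SE 0.17, 95% interval -0.21 to 0.54, limma p = 0.351, exact permutation p = 0.486). Jam2 (JAM-B, chr16:84774123-84825928, plus strand) had 851, 831, 532 and 479 normalized reads in the treated and 481, 956, 602 and 605 in the control libraries. Here 7N was the highest and the treated libraries split into 2 high and 2 low values. The means of 673 ± 195 and 661 ± 205 (SD, n = 4 each) nearly coincided, with a log2 fold change of 0.03 (SE 0.24, 95% interval -0.51 to 0.56, limma p = 0.915, exact permutation p = 1.0).

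Jam3 (JAM-C, chr9:27097384-27155421, minus strand) had 326, 431, 345 and 325 normalized reads with the agonistic CD40 mAb and 252, 312, 343 and 376 with the isotype control. All 4 treated libraries were above the control mean of 321 ± 53.1, yet 8N and 9L lay among them. Its log2 fold change was 0.16 (SE 0.16, 95% interval -0.19 to 0.51, limma p = 0.336, exact permutation p = 0.400). The values of Jam3 are uncertain in their origin, because an annotated gene on the opposite strand, Gm48796, covers 1159 of its exonic bases, 29.3% of its 50-base windows are shared with other transcripts, and the library kit did not mark the strand. For the other members at most 1.54% of windows were shared (Pecam1).

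Cldn5 encodes claudin-5, the main claudin of endothelial tight junction strands. It is a gene of 1 exon on chr16:18776847-18778262 (plus strand). Its normalized reads were 195, 883, 434 and 650 in the treated libraries and 261, 661, 555 and 352 in the control libraries. Treated libraries were both the lowest (5N) and the highest (6L), a 4.53-fold span, and the controls lay between them. The 95% Poisson interval, which covers the counting of reads and not the difference between mice, was 186 to 204 in 5N and 847 to 919 in 6L, and 214 to 316 in 5L, which had the fewest Cldn5 reads, 107. The means were 540 ± 294 and 458 ± 183 (SD, n = 4 each), with coefficients of variation of 54.5% and 40.0%. The log2 fold change was 0.13 (SE 0.43, 95% interval -0.82 to 1.08, limma p = 0.769, exact permutation p = 0.629), and the interval, from 0.565-fold to 2.12-fold, covered changes of 1.5-fold in both directions. The SD of Cldn5 around its group means, 0.79 on the log2 scale, was larger than that of 93.6% of all genes tested, whereas the other 8 junction genes tested had SDs of 0.20 to 0.42.

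Ocln encodes occludin, the other strand protein among the members (chr13:100496507-100552718, minus strand). It had 0, 6, 0 and 4 reads in 5N, 6L, 6R and 10N, and 0, 0, 2 and 0 reads in 5L, 7N, 8N and 9L. These are 2.26 and 2.32 normalized reads in 6L and 10N and 2.72 in 8N, with 95% Poisson intervals of 0.830 to 4.93, 0.633 to 5.95 and 0.330 to 9.83. By a one-sided bound, unlike these two-sided intervals, a count of 0 allows up to 3 reads, or 0.353 normalized reads in 5N and 7.33 in 5L. Ocln was thus at the limit of detection in both groups and was not tested. Intervals from reads cover counting error only, since the reads carried no molecular identifiers.

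The upstream sequences of the 2 strand genes are shown because Cldn5 was read in every library and Ocln in only 3, and that of Tjp1 because its values were among the steadiest. They are the 250 bases before the start in RefSeq (GRCm38.p6, the mm10 assembly), 5′ to 3′ on the strand of the gene, with each CpG dinucleotide in capitals. The Cldn5 window is chr16:18776597-18776846 (plus strand), that of Ocln chr13:100552719-100552968 (minus strand, the upstream one of 2 starts), and that of Tjp1 chr7:65371245-65371494 (minus strand), at a start that lies inside the GENCODE gene rather than at its outer end.
Cldn5: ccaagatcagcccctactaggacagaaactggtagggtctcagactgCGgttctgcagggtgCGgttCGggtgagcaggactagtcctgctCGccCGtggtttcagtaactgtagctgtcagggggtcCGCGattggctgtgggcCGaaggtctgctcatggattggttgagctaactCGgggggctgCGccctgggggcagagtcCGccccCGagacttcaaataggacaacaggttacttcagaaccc
Ocln: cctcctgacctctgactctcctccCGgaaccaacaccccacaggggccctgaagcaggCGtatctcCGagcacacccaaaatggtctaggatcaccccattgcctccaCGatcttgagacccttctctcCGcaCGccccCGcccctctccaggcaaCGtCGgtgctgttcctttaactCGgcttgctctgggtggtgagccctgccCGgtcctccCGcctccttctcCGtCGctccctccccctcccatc
Tjp1: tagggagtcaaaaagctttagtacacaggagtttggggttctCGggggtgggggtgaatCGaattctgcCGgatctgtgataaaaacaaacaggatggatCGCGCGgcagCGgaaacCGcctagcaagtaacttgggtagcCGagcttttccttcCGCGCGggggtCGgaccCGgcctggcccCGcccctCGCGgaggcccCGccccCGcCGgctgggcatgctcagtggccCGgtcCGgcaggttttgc
The Cldn5 window holds 12 CpG, the Ocln window 14 and the Tjp1 window 22. Among 32851 RefSeq promoters of the same length, whose median is 6, 33.5%, 29.4% and 14.8% held at least as many. The ETS-like letters CAGGAAG and CCGGAAG and the STAT-like letters TTCNNNGAA, searched on both strands, were not found in these windows nor in those of Cgnl1, F11r and the second Ocln start, while 10.8%, 6.91% and 7.02% of all promoters hold them. The absence says only that these letters are not in these 250 bases. Windows of the other members were not used here.

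Tjp1 encodes ZO-1, the scaffold that links claudins, occludin and JAM proteins to actin. It lies on chr7:65296165-65527781 (minus strand, 31 merged exons). Its normalized reads were 3360, 3303, 2584 and 2704 with the agonistic CD40 mAb and 2468, 3423, 3059 and 2774 with the isotype control. Both the highest value (7N) and the lowest (5L) came from control libraries. The means of 2988 ± 400 and 2931 ± 407 (SD, n = 4 each) differed by 1.02-fold (log2 0.03, SE 0.14, 95% interval -0.28 to 0.34, limma p = 0.845, exact permutation p = 0.857), and the interval ended at 1.27-fold.

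Cgnl1 encodes paracingulin, a cytoplasmic protein of adherens and tight junctions (chr9:71626509-71771602, minus strand). Its normalized reads were 513, 601, 438 and 494 in the treated and 349, 393, 482 and 505 in the control libraries. All 4 treated libraries were above the control mean and all 4 control libraries below the treated mean, but 8N and 9L exceeded 6R. The means were 512 ± 67.8 and 432 ± 73.3 (SD, n = 4 each). Cgnl1 had the lowest p of the 9 junction genes tested, with a log2 fold change of 0.25 (SE 0.15, 95% interval -0.09 to 0.59, limma p = 0.134, exact permutation p = 0.171). It ranked 798th of all genes by p.

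**Figure D2:**
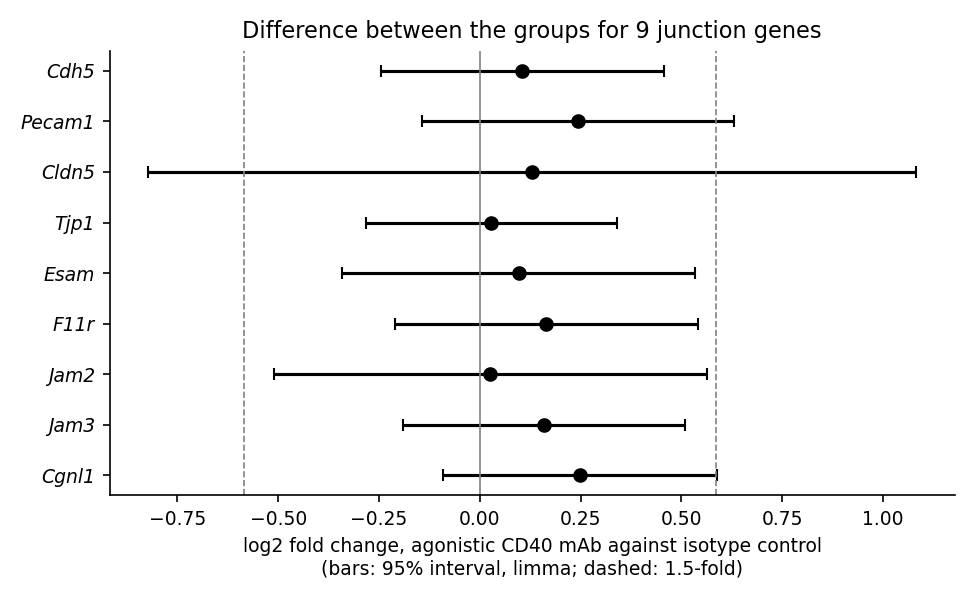
Log2 fold change (horizontal axis, agonistic CD40 mAb against isotype control) of the 9 junction genes tested, with its 95% interval from limma and dashed lines at 1.5-fold. All 9 points lie right of 0 and every interval crosses 0, with Cldn5 the widest, from -0.82 to 1.08.

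The fold changes of the 9 genes were all slightly above 0, with a median log2 of 0.13 against 0.0046 over all genes tested, of which 51.3% were above 0. All 9 stayed above 0 without 6R or without 7N, 8 without 10N, 8N or 9L, and 7 without 5N. Without 5L, 4 of the 9 were above 0 and their median was -0.0043: Pecam1 was at 0.17, Cgnl1 at 0.15, Jam3 at 0.05 and Cdh5 at 0.04, and Jam2 at -0.11, Cldn5 at -0.11, Esam at -0.10, Tjp1 at -0.05 and F11r at -0.0043. Without 6L, 6 of the 9 were above 0, with a median of 0.02. 5L had the lowest value of the 8 libraries for 6 of the 9 genes and lay below the mean over libraries for all 9, by a median of 0.41 on the log2 scale. 6L had the highest value for 7 of the 9 and lay above that mean for all 9, by a median of 0.36.

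The junction genes spanned a wide range of levels, with the same order of group means in both groups except for Jam2 and Jam3. Levels can be compared between genes only per length, as normalized reads per kilobase of exon (mean ± SD, n = 8 libraries). Cdh5 stood first with 2741 ± 379, followed by Pecam1 with 1592 ± 294 and Esam with 1237 ± 238. F11r had 582 ± 94.9, Tjp1 379 ± 48.0 and Cldn5 352 ± 163. Jam2 followed with 110 ± 30.7, Jam3 with 106 ± 16.2 and Cgnl1 with 60.2 ± 9.94, while Ocln reached at most 0.645 in a library. In all 8 libraries Cdh5 was above Pecam1, Pecam1 above Esam, Esam above F11r, F11r above Tjp1, Jam3 above Cgnl1 and Cgnl1 above Ocln. Tjp1 was above Cldn5 in 4 of 8 libraries and Jam2 above Jam3 in 4 of 8, so these neighbors did not differ beyond their spread. Cldn5 was above Jam2 in 7 of 8. The place of Jam3 in this order carries the uncertainty given above on the origin of its reads.

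**Figure D3:**
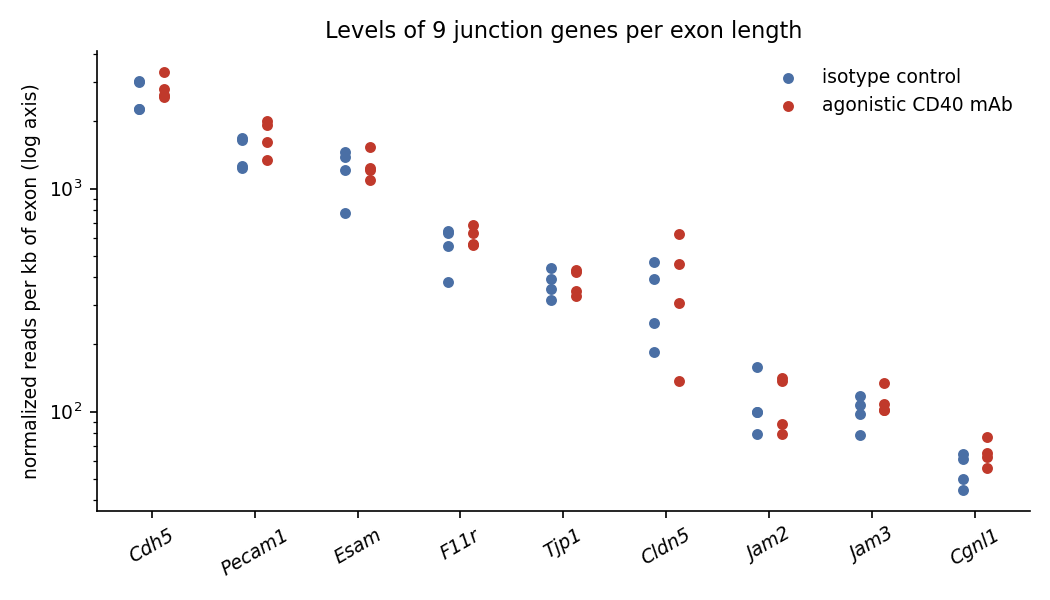
Normalized reads per kilobase of exon (log axis) of 9 of the junction genes in the 8 libraries, 1 point per library, colored by group, in order of their mean. The genes fall from Cdh5, at 2741 on average, to Cgnl1, at 60.2; Ocln, at 0 in 5 libraries, is not drawn, and Tjp1 and Cldn5, and Jam2 and Jam3, overlap.

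The make-up of the junction transcripts was also compared between the treatments. Cdh5 and Pecam1 together held 62.0% to 71.0% of the normalized reads summed over the 10 genes in each library, not corrected for length. The sum itself was 33001 ± 4604 with the agonistic CD40 mAb and 29937 ± 4608 with the isotype control (SD, n = 4 each, exact permutation p = 0.343). The ratio of Pecam1 to Cdh5 ran from 0.802 to 0.826 in the control libraries and from 0.775 to 1.02 in the treated ones, with means of 0.815 ± 0.010 and 0.901 ± 0.102 (exact permutation p = 0.143). Cldn5 ran from 1.65% (5N) to 6.94% (7N) of the Cdh5 reads, and Jam2 from 1.47 (10N) to 3.07 times (7N) the Jam3 reads, with overlapping groups in both cases. The Jam3 reads in this ratio are uncertain in origin, as given above. No difference was detected between the groups in the 6 such quantities compared: the Benjamini-Hochberg adjusted p over the 6 exact permutation tests was 0.857 for each.

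In a bulk sample, fewer endothelial cells and less RNA per cell cannot be told apart. The summed normalized reads of 10 endothelial markers that are not among the junction genes (Kdr, Flt1, Tek, Tie1, Erg, Egfl7, Emcn, Vwf, Eng and Robo4) ran from 33757 to 48535 in the treated and from 29325 to 40288 in the control libraries, lowest in 5L and highest in 6L. Melanoma markers ran the other way, with sums of 35745 to 60850 and 38674 to 93734, lowest in 6L and highest in 5L. Fibroblast markers summed to 120637 to 249098 and 88497 to 216733, and mural cell markers to 14612 to 25272 and 11339 to 35477, highest in 7N. The sorted samples thus held, beside the endothelial transcripts, melanocyte transcripts (Tyrp1 at a mean of 19300 normalized reads) and collagen transcripts (Col3a1 at 80942). Leukocyte markers summed to 215 to 416 and 144 to 336, with the lymphocyte markers Cd3e, Cd3g, Cd8a and Nkg7 under 5 normalized reads in every library. Cd79a, also a lymphocyte marker, ran from 0.707 to 5.28 in the treated and from 0 to 3.90 in the control libraries. The myeloid members were present, Lyz2 at 118 to 251 in the treated and 56.2 to 193 in the control libraries and Cd68 at 43.6 to 106 and 57.2 to 94.9, and Ptprc, which encodes the excluded CD45, at 1.51 to 21.1 and 0 to 4.98. Platelet markers, which matter for Esam and Pecam1, summed to 235 to 955 and 90.4 to 711. Lymphatic endothelial markers summed to 3161 to 5412 and 2102 to 4007, and of the epithelial markers Epcam and Krt14 were at 0 in every library. 5L was also the lowest library for the lymphatic, leukocyte, platelet, fibroblast and mural sums, and 6L also the highest for the lymphatic and platelet sums. The median log2 fold change was 0.58 over the 6 lymphatic markers, 6 of them above 0, and 0.52 over the 5 platelet markers, 5 above 0, against 0.16 over the 10 endothelial markers, 9 above 0. It was 0.15 over the 6 fibroblast markers, 5 above 0, and 0.37 over the 4 leukocyte markers tested, 2 above 0. It was below 0 for the 6 mural cell markers, at -0.24, and the 7 melanoma markers, at -0.07, with 0 above 0 in either list. Of the leukocyte markers 4 of 10 passed the limit on low values and of the epithelial markers 0 of 6, while all genes of the other 6 lists did. None of the marker genes tested was called higher or lower, and the part of these cell types in the values of the junction genes was not tested.

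The values were also scaled to the 10 endothelial markers, by factors between 0.793 (5L) and 1.37 (6L). This scaling was chosen after seeing that the sum of these markers, like most of the junction genes, was lowest in 5L and highest in 6L, so that a smaller spread of genes with that pattern follows from its construction. Its values describe which junction genes went along with the markers. The SD became smaller for 8 of the 9 genes, and for 26.5% of all genes tested. The SD around the group means, on the log2 scale, went from 0.21 to 0.077 for Cdh5, from 0.22 to 0.096 for Cgnl1, from 0.22 to 0.11 for Jam3 and from 0.25 to 0.13 for Pecam1. F11r went from 0.27 to 0.16 and Esam from 0.33 to 0.17. Cdh5 then ran from 10261 (6L) to 12058 (5L) over the 8 libraries, and only 0.0231% of all genes had a smaller SD. Cldn5 (0.79 to 0.74) and Jam2 (0.42 to 0.41) hardly changed, and Tjp1 rose from 0.20 to 0.24. The median SD of the 9 genes fell from 0.25 to 0.16 while that of all genes rose from 0.28 to 0.37. The scaling moved the median log2 fold change of all genes to -0.13, and the fold changes of the 9 genes lay between -0.10 (Jam2 and Tjp1) and 0.12 (Cgnl1), with none called.

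**Figure D4:**
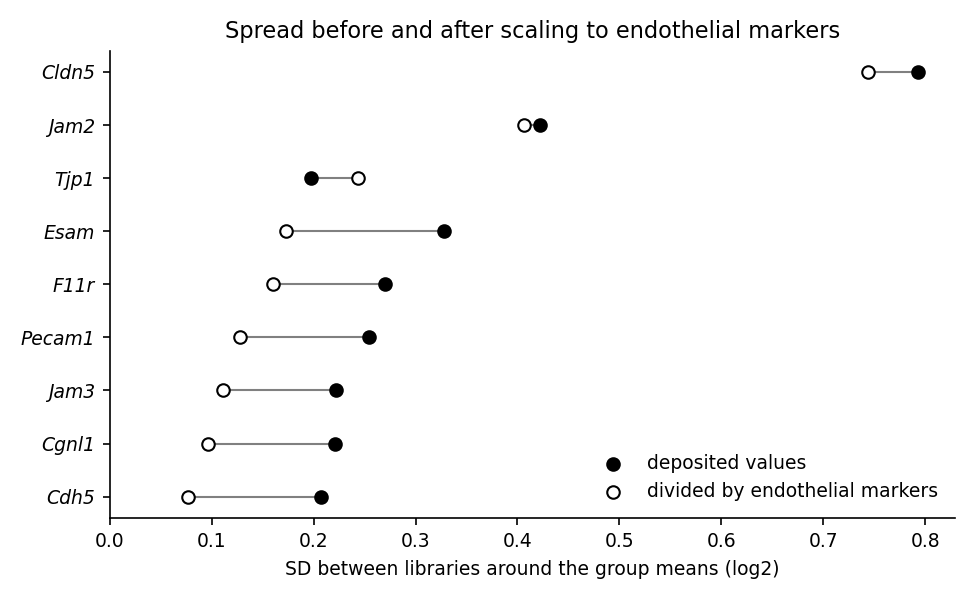
SD around the group means on the log2 scale for the 9 junction genes tested, with the deposited values and after scaling to 10 endothelial markers. Cdh5, Cgnl1, Jam3, Pecam1, F11r and Esam fall, Cdh5 from 0.21 to 0.077; Cldn5 and Jam2 stay high, and Tjp1 rises.

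The wider junction machinery was examined in 6 further lists of 57 genes, of which 56 were in the table and 48 passed the limit on low values. In limma 0 of the 48 were called higher, 0 lower and 0 had an unadjusted p of at most 0.05. Over all genes tested these shares were 1.28%, 0.239% and 2.01%, so that counts of 0 among 48 genes lie near them. The counts from edgeR and DESeq2 were also 0. Of the 48, 30 had a log2 fold change above 0.

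The adjusted p, by limma over all genes, was 0.9997 for each tested gene named below. Of 10 other genes of the adherens junction, among them catenins, N-cadherin, nectins and the VE-cadherin-binding phosphatase Ptprb, all were tested and 4 were above 0, with a median log2 fold change of -0.02. Ctnnb1, which encodes β-catenin, had 12839 ± 657 normalized reads with the agonistic CD40 mAb and 12986 ± 1084 with the isotype control (SD, n = 4 each, log2 fold change -0.01). Vcl, the actin linker vinculin, had 4130 ± 263 and 4685 ± 1092 (-0.15), Cdh2, or N-cadherin, 345 ± 34.6 and 376 ± 37.0 (-0.13), and Jup, or plakoglobin, 1263 ± 288 and 1076 ± 331 (0.27).

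Of the 13 tight junction scaffolds other than Tjp1 and Cgnl1, 11 were tested, 6 of them above 0, with a median of 0.02. Amotl2, an angiomotin-like protein that binds the VE-cadherin complex, had 1146 ± 225 and 920 ± 151 normalized reads (log2 fold change 0.31, SE 0.16), and its relative Amotl1 2431 ± 68.1 and 2404 ± 300. Inadl, the tight junction scaffold PATJ, had 59.6 ± 30.7 and 78.2 ± 21.4 (-0.48, SE 0.36), and was called lower, at -0.78, when 6R was left out. Tjp3 and Cgn, the relatives of ZO-1 and paracingulin known from epithelia, were below the limit of 10.

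Of 13 other tight junction membrane proteins, 7 passed the limit on low values and were tested. Cldn12 had 357 ± 51.7 and 389 ± 97.1 normalized reads (log2 fold change -0.11) and Clmp 231 ± 69.0 and 216 ± 117 (0.21). Cldn10 had 5.26 ± 3.06 and 12.3 ± 8.61 (-1.07, SE 0.64), and Marveld2, or tricellulin, 11.5 ± 4.60 and 8.49 ± 2.79 (0.38). The epithelial claudins Cldn1, Cldn3, Cldn4 and Cldn7 were below the limit.

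The connexins form gap junctions, the channels between neighboring cells. Gja1, or connexin 43, had 5217 ± 568 and 5167 ± 1247 normalized reads (log2 fold change 0.04), and Gjc1 522 ± 99.5 and 650 ± 290 (-0.24). Gja5, the arterial connexin 40, had the lowest p of the 48 genes. It ranged from 268 to 321 with the agonistic CD40 mAb and from 159 to 325 with the isotype control, with means of 291 ± 22.1 and 225 ± 74.1 (log2 fold change 0.42, SE 0.21). One control library lay above all treated ones, and without it (8N) the gene was called higher (1.52-fold, log2 0.62).

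Among the 6 further molecules of leukocyte passage and border adhesion tested, 4 were above 0, with a median of 0.04. Icam2 had 840 ± 124 and 779 ± 196 normalized reads, Mcam 9286 ± 774 and 9188 ± 1612, Cd47 690 ± 21.1 and 662 ± 224, and Emcn, also an endothelial marker above, 3411 ± 636 and 3325 ± 793. The small GTPase Rap1 and the CCM complex stabilize junctions. Of 10 regulators around them, 9 were above 0, with a median of 0.11, against 51.3% and 0.0046 over all genes tested. Rap1b had 2606 ± 405 and 2623 ± 670, Arhgap29 4044 ± 694 and 3810 ± 785, Heg1 1206 ± 357 and 1044 ± 151, and Pdcd10 294 ± 31.0 and 264 ± 6.51. The groups overlapped for all of these genes, while they did not overlap for 1.57% of all genes tested.

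**Figure D5:**
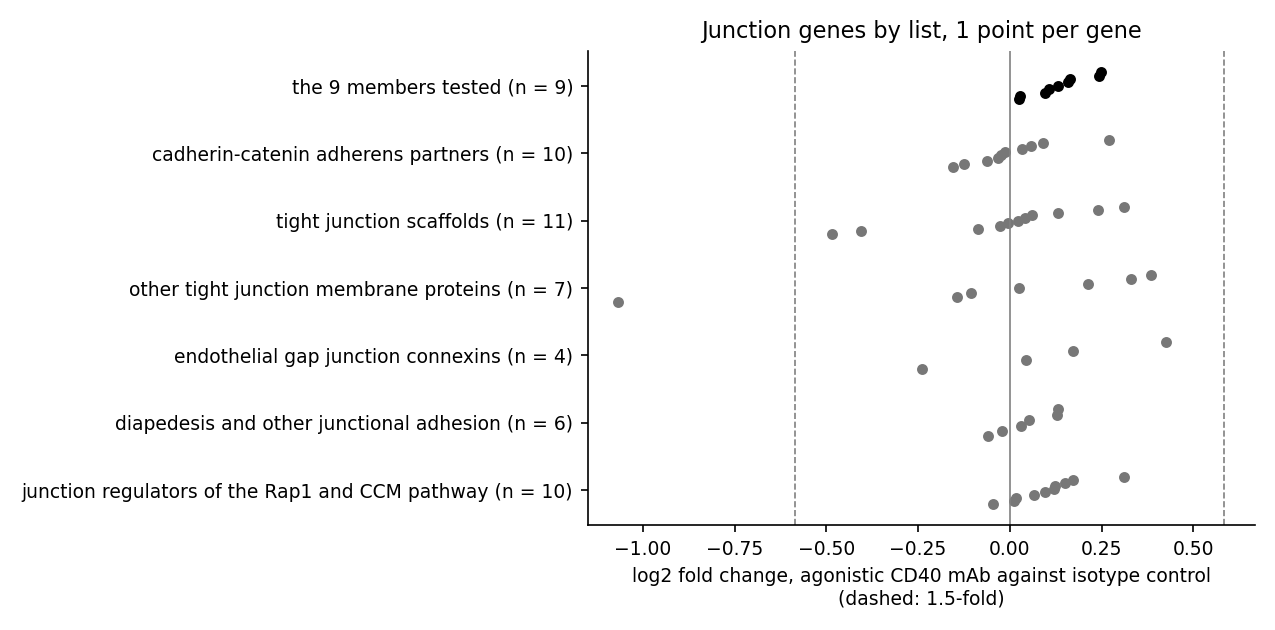
Log2 fold change (horizontal axis, agonistic CD40 mAb against isotype control) of the 9 junction genes tested (black) and of the 48 genes of 6 further junction lists (grey), 1 point per gene, with dashed lines at 1.5-fold. All but Cldn10, at -1.07, lie within 1.5-fold.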

How the data were processed

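RNA of tumor endothelial cells (approximately 100000 sorted cells and 10 ng of RNA per tumor, unstranded TruSeq v2 kit) was sequenced with 1 library per mouse. TopHat2 was used by the authors for alignment against mm10 and Partek Genomics Suite (version 6.6) for assignment to genes. The deposited signal is the gene count divided by a DESeq2 size factor. CASAVA 1.8 and Bowtie2 2.2.1 are named in the submitters' processing notes. Whether counting used strand is not given in the sources used here. Of the deposited values, 99.9% were whole multiples of 1 read of their library (within 0.1 read), and a correction for harvest day or a floor of 1 is not visible in them. Harvest day was not a term of the fit, since the labels give only the time after the last injection, the same for every library, and no date; a harvest day effect in the values was not tested. All columns of values belonged to a labelled library.

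Values were tested as log2(value + 1) in limma 3.58.1 (R 4.3.3), fitting treatment alone with trend moderation and Benjamini-Hochberg adjustment over all 12969 genes; an exact two-sided permutation test was added for single genes. Folds are ratios of group means, and log2 fold changes, on the log2(value + 1) scale, understate the change of genes with few reads. Recovered reads were tested with edgeR 4.0.16 and DESeq2 1.42.0. Fits were tested on simulated data. Groups came from the treatment labels. Positions and exonic lengths are from GENCODE M21; upstream sequences are from RefSeq, whose table was matched for 5 of the 10 genes. The genes, the lists and the tests were chosen with earlier results of these data known. Named beside the 10 genes were, in each further junction list, those called, the 2 of lowest p and the 2 of highest mean, and, in the marker lists, the highest means and defining markers; Tjp3, Cgn and the claudins below the limit were picked for mention after seeing values. Afdn, Nectin2, Nectin3 and Patj were read under the older symbols Mllt4, Pvrl2, Pvrl3 and Inadl, and Cd99 was not analysed here. Alternatives were other pseudocounts, limits, scalings, moderation and tools, and each library left out.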

Additional observations from a re-analysis of the deposited data

How the results depend on the processing

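None of the 9 junction genes was called in any of the 21 alternatives, nor had any of them an unadjusted p of at most 0.05. Pecam1, Jam3 and Cgnl1 kept a log2 fold change above 0 in all 21, but Pecam1 fell to 0.024 and Cgnl1 to 0.063 with library quality weights, and Jam3 to 0.029 when scaled to endothelial markers. With library quality weights, Cdh5 was at -0.086, Tjp1 at -0.054, Esam at -0.13, F11r at -0.060 and Jam2 at -0.015. Scaled to endothelial markers, Cdh5 was at -0.025, Cldn5 at -0.00051, Tjp1 at -0.10, Esam at -0.034 and Jam2 at -0.10. With 1 library left out, Cldn5 ran from -0.17 to 0.55, Tjp1 from -0.051 to 0.11, Esam from -0.10 to 0.20, F11r from -0.0043 to 0.25 and Jam2 from -0.11 to 0.22. The cause of these shifts was not tested. Among the further junction genes, the number called higher ran from 0 to 1 (Gja5, without the isotype control library 8N) and the number lower from 0 to 1 (Inadl, without 6R). Without a limit on low values 1 was called higher (Igsf5) and 1 lower (Cldn7), both at few reads, and with library quality weights 1 was called lower (Cldn10). Over all genes, the 31 called lower became 123 without 5L, 70 with quality weights, 57 without trend, 52 without 9L, 47 in edgeR and 58 in DESeq2, and 88 without a limit on low values and 13 with a limit of 50. The 166 called higher became 297 without a limit. The 2 genes with an adjusted p under 0.05 became 64 in DESeq2, 34 after scaling to endothelial markers, 19 without 5L and 17 with quality weights, and ran from 1 to 4 in the other alternatives. Ocln had 0 reads in shallow and deep libraries alike, and in 5L and 7N 1 read is worth over 2 normalized reads. No paired analysis was possible because the groups share only 1 mouse number (5N and 5L), and the labels do not say what it marks. Within the agonistic CD40 mAb group, 6L and 6R also share a number, and by their labels they were counted as separate mice.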
